A study of Homo sapiens with 4 samples.

Results

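The genes described here are the numbered zinc finger protein genes of chromosome 19, taken as the protein-coding GENCODE release 29 genes whose symbol is ZNF followed by digits, with at most one closing letter. They number 246, of 19969 protein-coding genes in the annotation, and 6 of them carry a closing letter. Of these, 181 had at least 1 skipped-exon event in the deposited tables and 65 had none. A skipped-exon event is a trio of exons whose middle exon is either kept or left out of the mature transcript. The middle exon lay inside one of these genes on the same strand in 602 of the 44447 listed events, which hold 499 of the 37641 distinct skipped exons.

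Proteins of this family carry runs of C2H2 zinc fingers, each finger folding around a zinc ion, and the runs bind DNA. Many of the chromosome 19 genes also encode a KRAB domain, which recruits the co-repressor TRIM28 and, through it, the histone methyltransferase SETDB1, and these proteins are best known for silencing transposable elements. In a typical KRAB zinc finger gene a short exon encodes the KRAB A box, another encodes the B box and the long last exon encodes all the fingers. Leaving out the A-box exon removes the main repressor part from the transcript. Whether the fingers stay in the reading frame without that exon was not examined here. The genes arose by tandem duplication and lie in clusters along the chromosome.

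The series compared parental MDA-MB-231 with MDA-LM2. The former is an established line of human triple-negative breast cancer, and the latter was derived from it and is highly metastatic to lung. Total RNA of untreated cultures, 2 samples of each line, was sequenced from ScriptSeq v2 libraries. MDA-LM2 is a selected population of one cell line, so a difference between the lines describes this pair. The deposited tables hold 1 set of values per line, taken here as pooled over its samples, so nothing below has a replicate check and no p-value is given. Nothing in the labels says that the samples of a line came from separate cultures.

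For each event the tables give an inclusion level, the estimated fraction of transcripts that keep the middle exon, with an interval. They also count reads that fit the isoform with the exon (inclusion reads), the isoform without it (exclusion reads), both isoforms or neither. Over all events, 17366605 reads fit at least one isoform in LM2 and 21716937 in parental cells. The ZNF events held 161880 of these reads in LM2, or 0.932%, and 242546 in parental cells, or 1.12%. Inclusion and exclusion reads are called informative here, and the intervals given for ratios of reads cover counting error only. As a check of the cells, CD44 and AXL, markers of this mesenchymal-like line, had 2883 or more event reads in each library. Of 12 genes that mark epithelial, immune, endothelial or fibroblast cells, CDH1 alone had a measured event, with 11 reads in LM2 and 13 in parental cells. VIM, CAV1 and MSN, and the markers of other cell types apart from CDH1, had no event that could be measured. All these unmeasured genes check nothing, since a missing event is no sign that a gene is silent.

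The lengths of the skipped exons followed the layout of the family. The commonest length, that of a typical KRAB A-box exon, was shared by 66 of the 499 exons, or 13.2%, against 0.680% of all skipped exons and 4.55% of those in numbered ZNF genes of other chromosomes. Next came 96 nt, that of a typical B-box exon, with 17 exons, or 3.41%, against 1.03% of all skipped exons and 3.22% of those in numbered ZNF genes of other chromosomes. These are called A-size and B-size exons below, by length alone. Protein sequence was not used here, so a KRAB domain was not assigned to any gene.

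Sequences of 4 A-size exons are shown because they include the exon with the largest fall in level in LM2 relative to parental cells among those with at least 20 informative reads per library (ZNF71), one with a large difference the other way (ZNF283) and a pair that cannot be told apart by sequence (ZNF765 and ZNF813). All are coding, on the plus strand of hg38, at chr19:56613812-56613938, chr19:43837053-43837179, chr19:53402065-53402191 and chr19:53486632-53486758 in that order, and are written 5′ to 3′ from GENCODE transcripts. Capitals mark GGAGGAGTGG, the 10-letter word found in more of the ZNF exons than any other.
ZNF71: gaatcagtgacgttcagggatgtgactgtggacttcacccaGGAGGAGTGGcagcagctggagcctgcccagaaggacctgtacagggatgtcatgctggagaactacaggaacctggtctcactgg
ZNF283: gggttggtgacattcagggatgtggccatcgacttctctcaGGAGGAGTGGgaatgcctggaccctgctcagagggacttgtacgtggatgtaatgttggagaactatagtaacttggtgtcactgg
ZNF765: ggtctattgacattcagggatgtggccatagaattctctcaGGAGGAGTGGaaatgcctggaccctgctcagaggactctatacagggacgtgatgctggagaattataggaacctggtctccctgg
ZNF813: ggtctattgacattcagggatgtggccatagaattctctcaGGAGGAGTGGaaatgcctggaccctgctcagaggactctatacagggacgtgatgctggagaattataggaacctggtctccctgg

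The ZNF765 and ZNF813 exons differed at 0 positions, and a read inside them fits both genes. The exons of ZNF71 and ZNF283 were 78.0% identical to each other, and ZNF283 was 82.7% and ZNF71 76.4% identical to ZNF765. In all, 7 exon sequences occurred in more than one of these genes, so counts at such exons are uncertain by gene. The word GGAGGAGTGG was present on the sense strand of 50 of the 465 ZNF exons with a sequence, or 10.8%, and 40 of the 50 were of A size. It occurred in 0.236% of all skipped exons and in 14 of 466 exons of numbered ZNF genes of other chromosomes. Its reverse complement occurred in 0 of the 465. The word was picked as the commonest in these same exons, so its higher share here follows in part from that choice.

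To enter the comparison of levels an exon needed 10 or more informative reads per library, and 1 or more of each kind over both. This left 202 exons in 102 genes, of 14109 in the whole series. Of the 297 others, 192 were listed in both lines with too few informative reads, 85 had reads of one kind only, and the rest were listed for one line. Among the 202, 34 also lay in another gene on the same strand, 4 of them in a second gene of this family, and 10 had a gene on the opposite strand. Exons of one gene often share the same exclusion reads, so the 202 are not independent.

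A-size and B-size exons were mostly kept. The 32 A-size exons compared, in 31 genes, had a median inclusion level of 0.87 in LM2 and 0.84 in parental cells, and 24 of them were above 0.7 in both lines. The 10 B-size exons had medians of 0.885 and 0.925, with 9 above 0.7 in both lines. The exception, in ZNF473, was at 0.15 in LM2 and 0.09 in parental cells. Of the 160 ZNF exons of other lengths, 42 were above 0.7 in both lines. Outside these genes, 83 compared exons of A size had medians of 0.59 in LM2 and 0.67 in parental cells. There 143 of B size had medians of 0.53 and 0.57. ZNF91, a repressor of SVA and L1 retrotransposons, kept its B-size exon at 0.98 (interval 0.94 to 1.00) in LM2 and, in parental cells, 0.95 (0.90 to 0.98), from 152 inclusion and 0 exclusion reads against 221 and 3. ZNF274, which binds the 3′ ends of zinc finger genes and brings SETDB1 to them, kept its A-size exon at 0.95 and 0.98 and its B-size exon at 0.97 and 0.98. The A-size exons of ZNF765 and ZNF813 were at 0.96 and 0.98 in LM2 and at 0.96 and 0.97 in parental cells. Among B-size exons, ZNF850 was at 0.87 and 0.91 and ZNF506 at 0.94 and 0.95. The A-size exon of ZNF480 was lower, at 0.80 (0.71 to 0.89) and 0.83 (0.75 to 0.91), with 13 and 11 exclusion reads.

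Levels were spread within the A-size group. In parental cells they ran from 0.33 in ZNF71 to 0.98 in ZNF561, ZNF180 and ZNF274. ZNF83, with the best covered A-size exon (inclusion reads of 194 in LM2 and 279 in parental cells, exclusion reads of 0 and 3), has a pair of exons of that size. The well-covered one lies in the 5′ untranslated region and was at 0.99 and 0.97, and the other was at 0.86 and 0.78. The A-size exon of ZNF91 was at 0.57 (0.43 to 0.76) in LM2 and, in parental cells, 0.41 (0.33 to 0.49) although exclusion reads were 2 against 46 inclusion reads and 3 against 78, so level and informative reads did not match there. The level in the tables also draws on reads that fit both isoforms.

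**Figure D1:**
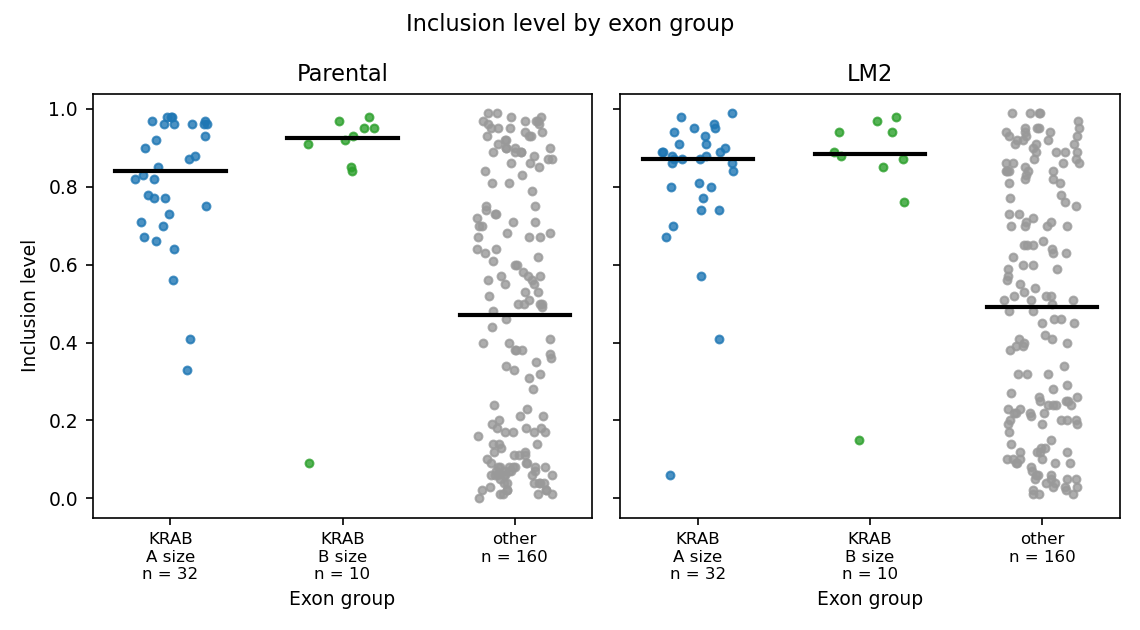
Inclusion level (fraction, vertical axis) of the 202 compared ZNF exons in parental cells and LM2, by exon group. Each point is 1 exon and bars are medians, at 0.84 and 0.87 for A-size exons and 0.925 and 0.885 for B-size exons.

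Compared exons of at least 1000 nt, the size range of finger exons, were kept almost always. The 5 such exons, in ZNF714, ZNF776 (2 overlapping exons), ZNF506 and ZNF530, had levels of 0.95 to 0.99 in both lines. Among exons of this size that were not compared, one in ZNF525 was at 0.89 in LM2 and 0.98 in parental cells. One in ZNF567 was at 0.97 and 0.98. In ZNF714 inclusion reads were 1010 in LM2 and 1816 in parental cells. Each of the 5 had 0 exclusion reads in LM2, and 1 in the parental library. Their informative reads, 430 to 1010 in LM2, were more than those of any shorter ZNF exon. A longer exon has more positions for inclusion reads, so their number is no measure of expression.

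Median levels were lower in 5′ untranslated exons and exons of non-coding transcripts than in coding exons. By annotation 113 of the 202 exons were coding, with a median level of 0.72 in LM2 and 0.68 in parental cells. The 48 exons in 5′ untranslated regions had medians of 0.59 and 0.54, and the 10 exons of non-coding transcripts 0.17 and 0.09. The 7 exons that are coding or 5′ untranslated by transcript had medians of 0.86 and 0.67, and 3 in 3′ untranslated regions 0.32 and 0.31. The 21 exons that match no annotated exon exactly had medians of 0.40 and 0.48, and whether they are coding was not determined. The untranslated exon of ZNF121 was almost always skipped, at 0.02 and 0.01, with 254 exclusion and 11 inclusion reads in LM2, and 485 and 9 in parental cells. That of ZNF146, a protein made of zinc fingers alone, was at 0.73 (0.69 to 0.78) in LM2 and, in parental cells, 0.67 (0.62 to 0.72), from 282 and 90 reads against 264 and 114. ZNF565 lies on the opposite strand there, and the sources used here do not say whether counting used strand.

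Few ZNF exons were called different between the lines. An exon was called where the authors' deposited table gives a Bayes factor of at least 10, the odds of a difference over none, and a difference in level of at least 0.2. By that rule 2 of 202 exons were higher in LM2 and 0 were lower. Over all compared exons 0.921% were called higher and 0.326% lower, so both counts are near the background.

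The first called exon is a coding exon of 191 nt in ZNF573. Its level was 0.32 (0.21 to 0.45) in LM2 and, in parental cells, 0.12 (0.07 to 0.18), and the authors' deposited table gives a Bayes factor of 38.49. Its inclusion reads were 30 in LM2 and 15 in parental cells, its exclusion reads 19 and 38, and the intervals of the lines did not overlap.

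The second called exon, 124 nt in the 5′ untranslated region of ZNF708, was at 0.27 (0.12 to 0.49) in LM2 and, in parental cells, 0.04 (0.01 to 0.11), and the authors' deposited table gives a Bayes factor of 11.38. Reads were few, with inclusion reads of 6 in LM2 and 2 in parental cells and exclusion reads of 7 and 36. It was not called where 20 informative reads per library were required, nor with a Bayes factor of at least 20.

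Other large differences did not reach the Bayes factor rule. Where both libraries had 20 or more informative reads, the largest difference upwards in LM2 was in a 5′ untranslated exon of ZNF160 of 141 nt, at 0.63 (0.46 to 0.79) in LM2 and, in parental cells, 0.36 (0.25 to 0.48). Its inclusion reads were 38 in LM2 and 36 in parental cells, and its exclusion reads 7 and 20. Shorter forms of the same exon, of 85 and 117 nt, differed by 0.25 and 0.24 and share those exclusion reads. A coding exon of ZNF28 of 118 nt was at 0.66 and 0.41, with inclusion reads of 32 and 19 and exclusion reads of 3 and 7. The A-size exon of ZNF283 was at 0.89 (0.73 to 0.98) and 0.66 (0.50 to 0.80), with 1 exclusion read in LM2 against 9. For ZNF160, ZNF28 and ZNF283 the intervals overlapped. An unannotated exon of 475 nt in ZNF600 was at 0.82 and 0.60, on 1 exclusion read in LM2 and 3 in the parental library. A coding exon of ZNF614 of 122 nt was at 0.38 (0.25 to 0.52) and 0.19 (0.11 to 0.30), again with overlapping intervals.

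With the same 20-read minimum, the largest difference downwards was in the A-size exon of ZNF71, whose sequence is printed above. Its level was 0.06 (0.01 to 0.18) in LM2 and, in parental cells, 0.33 (0.19 to 0.46), and the intervals did not overlap. By the authors' deposited table its Bayes factor was 8.15, just under the rule. Its inclusion reads were 1 in LM2 and 16 in parental cells, and its exclusion reads 23 and 25. The ratio of the odds of inclusion between the libraries was -3.34 on the log2 scale, with a 95% interval of -9.33 to -0.94. Over all compared ZNF exons such an interval lay above 0 in 16 and below 0 in 1, that of ZNF71. The same count was not made over all exons of the series. An exon of 123 nt in ZNF561 was at 0.77 and 0.97, with 3 exclusion reads against 0. Differences smaller than the width of their intervals followed in ZNF43 (0.34 and 0.50), ZNF317 (0.53 and 0.64), ZNF155 (0.60 and 0.70) and ZNF607 (0.88 and 0.97).

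Among all 202 compared exons the extremes had fewer reads, and they are given here after their values were seen. A coding exon of ZNF30 of 80 nt was at 0.94 (0.79 to 1.00) in LM2 and, in parental cells, 0.57 (0.25 to 0.83), with inclusion reads of 27 and 9 and exclusion reads of 0 and 1. In ZNF333 a coding exon of 314 nt was at 0.22 (0.09 to 0.39) and 0.53 (0.28 to 0.80), with inclusion reads of 7 and 12 and exclusion reads of 9 and 3. Neither was called, and the intervals overlapped in both.

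**Figure D2:**
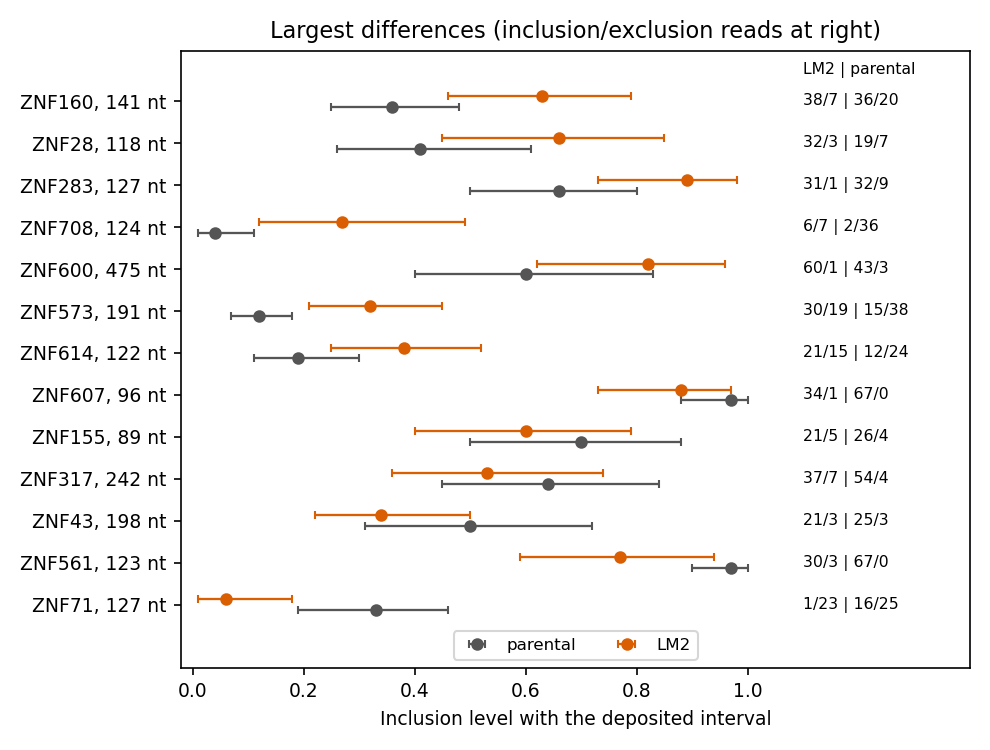
Inclusion level (horizontal axis, points) with the deposited interval (bars) in LM2 and parental cells for the called exons and the largest differences in each direction among exons with at least 20 informative reads per library, with inclusion and exclusion reads at the right. The intervals of ZNF573 (0.21 to 0.45 against 0.07 to 0.18), ZNF708 and ZNF71 do not overlap between the lines, and ZNF71 is the lowest in LM2, at 0.06.

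ZNF584, chosen after its values were seen, had 5 compared exons and all were higher in LM2, by 0.12 to 0.17. They form 2 sets with shared ends. One set, of 86 to 151 nt, ranged from 0.83 to 0.87 in LM2, against 0.71 to 0.74 for the parental line, with 5 shared exclusion reads against 17. The other set was at 0.26 and 0.28 in LM2 and 0.12 and 0.11 in parental cells, with 24 exclusion reads against 52. The highest Bayes factor among them in the authors' deposited table was 8.57, so none was called. In ZNF83, also chosen after its values were seen and with 8 compared exons, differences ran from 0.01 to 0.12. Its exons that were not compared went both ways, from -0.38 in one of 88 nt to 0.23 in one of 138 nt. That of 88 nt had a deposited Bayes factor of 23.28 but 0 exclusion reads in either line.

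Small differences leaned towards higher levels in LM2. Over the 202 exons the median difference was 0.01, with quartiles of -0.03 and 0.08, against 0 over all 14109, with quartiles of -0.02 and 0.03. It was above 0 in 115 exons, below in 76 and 0 in 11. That is 56.9% above 0, against 44.2% of all exons. The share was 46.3% in other protein-coding genes of chromosome 19 and 50.2% in numbered ZNF genes of other chromosomes. These shares count exons at 0 as not above. The whole series also leaned upwards, with 6240 exons above 0, 5466 below and 2403 at 0. Other chromosome 19 genes had 247 above and 189 below, and the other numbered ZNF genes 107 and 92. A difference of at least 0.2 in either direction at any Bayes factor was also more frequent, with 17 exons (8.42%) higher and 8 (3.96%) lower, against 2.71% and 1.84% of all exons. The ZNF exons were less deeply covered, with a median of 29.5 informative reads in LM2 and 41 in parental cells against 74 and 92. Their intervals had a median width of 0.245 and 0.18 against 0.11 and 0.10. The part of depth in these shares was not tested.

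The lean was strongest among little-used exons. This split, by the mean level of both lines, was chosen after the values were seen. Of 63 exons with a mean level under 0.3, 47 were above 0 and 11 below, with a median difference of 0.03. That is 74.6% above 0, against 44.9% of all such exons and 45.9% of those in other chromosome 19 genes. Exons at 0 again count as not above. All such exons also leaned upwards, with 2791 above 0 and 2055 below. Those of other chromosome 19 genes had 100 above and 72 below. In the other numbered ZNF genes 32 of 64 were above 0 and 27 below. With the best covered exon of each chromosome 19 ZNF gene alone, 34 of 47 were above 0 and 9 below. The ratio of the odds of inclusion to exclusion reads, computed without the deposited level, was above 1 in 46 of the 63, or 73.0%. It was above 1 in 51.2% of all such exons and 52.3% of those in other chromosome 19 genes. In the other numbered ZNF genes the share was 46.9%. The same reads enter the deposited level, so this ratio is no separate check. ZNF exons at a mean level over 0.7 did not lean this way, with 36 above 0 and 45 below.

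Depth differed between the lines at these exons, and the interval was wider in LM2, with a median width of 0.17 against 0.11. Among exons of this level with 18 to 54.75 informative reads in LM2, the middle range of all ZNF exons, 27 of 36 ZNF exons were above 0. In the same range 1135 of 2344 exons outside the family were above 0, or 48.4%, with exons at 0 counted as not above. Their median interval width was 0.10 in LM2 and 0.09 in parental cells. The range was set by LM2 reads alone, so depth in parental cells was not matched. The part of depth in the lean was not tested. The exons of one gene are not independent and there is 1 pooled library per line, so these shares describe the libraries.

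**Figure D3:**
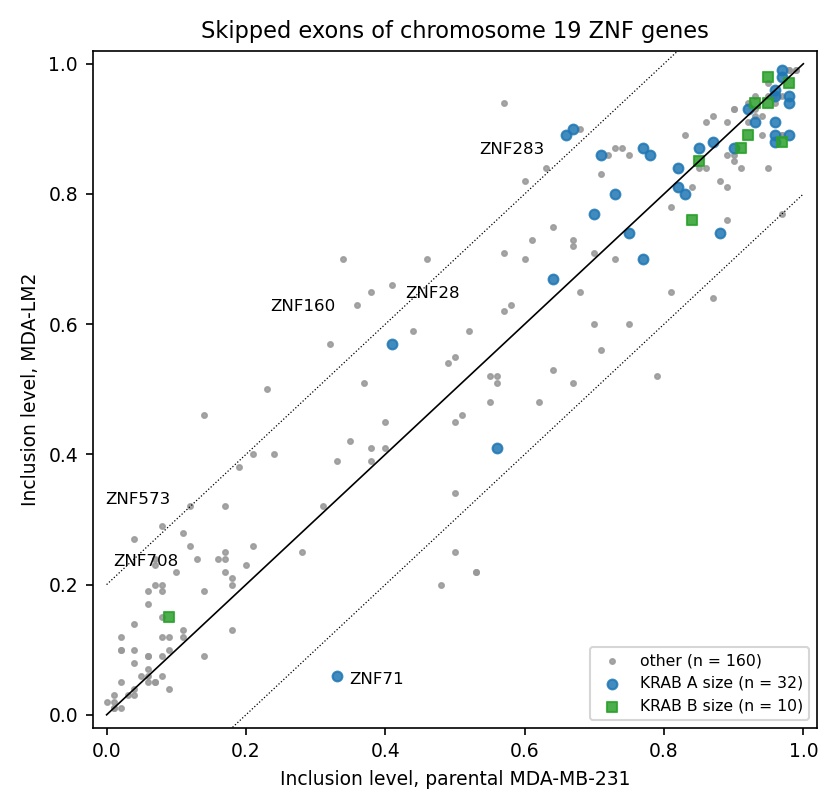
Inclusion level of each of the 202 compared ZNF exons in LM2 (vertical axis) against parental cells (horizontal axis), by exon group, with the line of equality and dotted lines at a difference of 0.2. Most points lie near the line of equality, and at low parental levels more lie above it than below.

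Some events were listed for one line only, 21 for parental cells and 1 for LM2. An event missing from a table is no level of 0. The best covered were in ZNF85, ZNF546, ZNF540 and ZNF208, all listed for parental cells only. They held 0 to 2 informative reads in parental cells, as in ZNF85 with 915 reads of which 914 fit neither isoform. The share of reads that fit neither isoform had a median of 86.0% per ZNF event in LM2 and 86.7% in parental cells. Over all events it was 82.8% and 84.8%, and in other protein-coding genes of chromosome 19 76.3% and 78.2%.

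Event reads also give a rough level for each gene. For each gene the best covered event was taken, and the reads that fit at least one isoform were scaled to 1000000 such reads in the library. This is no substitute for expression over the whole transcript, and in such bulk samples a change in the number of expressing cells and in RNA per cell cannot be told apart. Of the 246 genes 166 had at least 20 such reads over both libraries. None was at least 2-fold higher in LM2 with an interval above 1, and 16 of 166, or 9.64%, were at least 2-fold lower with an interval below 1. Over all 10232 genes measured 3.17% were higher and 8.79% lower, so the lower share is near the background. The median ratio was -0.19 on the log2 scale for ZNF genes and -0.12 for all genes, a gap of -0.07. Numbered ZNF genes of other chromosomes were lower still, with a median of -0.26 over 152 genes. Of these 11.8% were at least 2-fold lower and 1.97% at least 2-fold higher.

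Divided also by the length of the event's exons in kb, which allows genes to be compared, the genes with the highest levels were ZNF121, ZNF587, ZNF507, ZNF91, ZNF544 and ZNF714. ZNF121 was at 55.2 in LM2 and 74.3 in parental cells, ZNF587, whose event also lies in AC010522.1, at 61.8 and 66.3, and ZNF714 at 26.7 and 38.0. The level of ZNF91 was 36.3 in LM2 and 69.4 in parental cells, from 3311 and 7916 reads, a ratio of 0.523 (0.502 to 0.545). ZNF507 was at 58.2 and 49.1, and ZNF544, whose event also lies in AC020915.5, had a ratio of 0.988 (0.938 to 1.04). The median ZNF gene was at 7.48 in LM2 and 8.95 in parental cells.

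ZNF331, an imprinted gene, had the highest ratio, 1.86 (1.45 to 2.40), from 161 reads in LM2 and 108 in parental cells. ZNF468 was next among the well-covered genes, at 1.33 (1.23 to 1.44) from 1296 and 1219 reads. The intervals of ZNF444, a SCAN-domain protein, and of ZNF845, ZNF761 and ZNF569 included 1. The lowest ratios among genes with at least 50 reads were in ZNF610, at 0.219 (0.123 to 0.369) from 17 and 97 reads, and ZNF554, at 0.257 (0.176 to 0.366) from 38 and 185. They were followed by ZNF429 (0.269), ZNF491 (0.274), ZNF763 (0.338, in an event that also lies in AC008770.2) and ZNF558 (0.357). Of the genes with called or most changed exons, ZNF573 was at a ratio of 0.894 (0.772 to 1.03), ZNF708 at 0.648 (0.577 to 0.726), and ZNF283, with 306 reads in LM2 and 367 in parental cells, had an interval of 0.893 to 1.22. ZNF71 was at 0.748 (0.654 to 0.854).

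The ratio differed along the chromosome. The 246 genes fall into 20 clusters when neighbours no more than 500 kb apart are joined. The cluster from ZNF653 to ZNF791 (chr19:11483427-12640098) had a median log2 ratio of -0.65, with 15 of 18 measured genes below the median gene and 6 at least 2-fold lower. ZNF491, ZNF763, ZNF439 and ZNF440 are among those 6. The cluster from ZNF101 to ZNF254 (chr19:19668796-24129961), which holds ZNF91, was at -0.57, with 18 of 23 below the median gene. ZNF414 to ZNF846 was at -0.53, with 10 of 12 below. The cluster from ZNF175 to ZNF331 (chr19:51571298-53580269) was at 0.02, with 12 of 34 below the median gene and ZNF610 alone 2-fold lower. ZNF264 to ZNF446, at the end of the chromosome, was at -0.18, with 19 of 32 below.

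**Figure D4:**
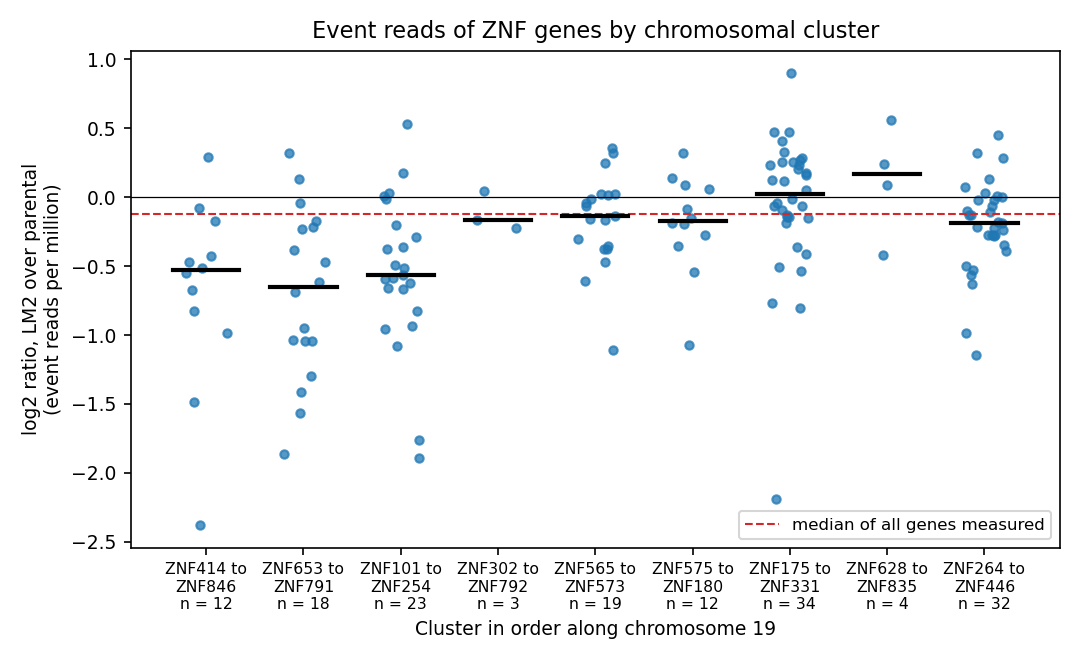
Ratio of scaled event reads in LM2 over parental cells (log2, vertical axis) for each ZNF gene in the 9 clusters with at least 3 measured genes, in order along chromosome 19. Points are genes, bars are cluster medians, from -0.65 in ZNF653 to ZNF791 to 0.17 in ZNF628 to ZNF835, and the dashed line is the median of all genes, at -0.12.

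Split at the end of the ZNF101 to ZNF254 cluster, a place chosen after the values were seen, 56 measured ZNF genes lay before it and 110 after. Before it the median log2 ratio was -0.57, 45 of 56 were below the median gene and 12, or 21.4%, were at least 2-fold lower. After it the median was -0.10, 54 of 110 were below the median gene and 4, or 3.64%, were at least 2-fold lower. Other protein-coding genes of the chromosome also differed across that place, with a median of -0.24 over 255 genes before it and 0.01 over 253 after it. Of them 7.84% and 8.70% were at least 2-fold lower, near the 8.79% of all genes. The medians of the ZNF genes before and after the split were 0.33 and 0.11 below those of the other genes on the log2 scale. Few other genes were measured inside the clusters, and there the gap was not always seen. Relative to the median gene, 8 other genes within ZNF653 to ZNF791 had a median of -0.26, with 6 below the median gene and 2 at least 2-fold lower, against -0.53 for the ZNF genes. Within ZNF101 to ZNF254 the 2 other genes had a median of -0.43, against -0.45 for the ZNF genes. Within ZNF557 to ZNF358, where no ZNF gene was measured, 2 other genes were at -1.64. Numbered ZNF genes of other chromosomes, with a median log2 ratio of -0.26, had 62.5% below the median gene.

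The partners of KRAB zinc finger proteins showed no 2-fold change. Of 17 co-repressor genes 12 were measured, with 0 at least 2-fold higher, 0 lower and a median log2 ratio of -0.19. TRIM28, CBX3, CBX5, MORC2 and UHRF1 had no event that could be measured. SETDB1 had 164 reads in LM2 and 218 in parental cells, a ratio of 0.941 (0.763 to 1.16). HDAC1, a histone deacetylase, was at 1.77 (1.60 to 1.97). The ratio was 0.571 in MPHOSPH8, 0.597 in SMARCAD1 and 0.620 in FAM208A, each with an interval below 1. Of 26 compared exons in these genes, 1 in HDAC1 was called higher, against 0.921% of all exons, and 0 were called lower.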

How the data were processed

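MDA-MB-231 and MDA-LM2 RNA, 2 samples of each, was aligned with STAR 2.7 to hg38, per the submitters' processing notes. Per the file headers, the authors' MISO tables give inclusion levels as fractions. The deposited tables hold raw read counts per event in 4 classes. In the authors' deposited comparison the difference is a score, LM2 minus parental level, and the Bayes factor is a ratio. The sources used here do not give MISO settings, replicate pooling or the level of the intervals.

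Members and lists were chosen with earlier results of these data known. Of an exon's events the one with most informative reads was used, and 14109 exons had at least 10 in each library. A-size exons are those of 127 nt. Ratios of reads carry exact conditional 95% intervals, and 0.5 was added to each count for the value of an odds ratio. Ratios were tested on simulated reads. Named were the called exons, the 6 largest differences in each direction among exons with at least 20 informative reads per library, the 8 best covered exons, the 4 best covered of A and of B size, the 4 best covered in one line only, and the 6 highest levels and 6 highest and lowest ratios of genes. Clusters join genes within 500 kb. Computation used Python 3.11.15, numpy 2.4.6, pandas 2.3.3 and scipy 1.17.1. Alternatives changed the Bayes factor, difference, read minimum, symbols, overlaps, events, level, read class and scaling. Some exon sequences are not reported here.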

Additional observations from a re-analysis of the deposited data

How the results depend on the processing

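No result reversed. With a Bayes factor of at least 20, or with 20 or more informative reads per library, 1 ZNF exon was called higher in place of 2, that of ZNF573. With at least 5 informative reads 1 exon was called lower, in ZNF331 (0.05 in LM2 and 0.35 in parental cells), and with no read minimum 2 were, that one and an exon of ZNF83 (0.35 and 0.73) with 0 exclusion reads in either line. When every event was counted 3 were called higher, with ZNF615 added. With inclusion and exclusion reads alone 1 gene was at least 2-fold higher, and relative to the median gene 1 was, in place of 0. By the read-based level, ZNF600 differed by 0.09 and not 0.22, and ZNF43 by -0.03 and not -0.16, and the cause was not tested. The median log2 ratio of reads ran from -0.31 with inclusion and exclusion reads alone to -0.07 relative to the median gene. Relative to the median gene 11 genes were at least 2-fold lower in place of 16. The median difference was 0.02 with at least 5 informative reads, in place of 0.01. The median level in LM2 ran from 0.51 with no read minimum to 0.80 by the read-based level, and ZNF607 differed by -0.06 by that level in place of -0.09. No paired analysis was possible because the deposited tables hold no column per replicate, and leaving out a replicate was not run for the same reason. Exons with few informative reads have wide intervals, which limits what their differences show.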
